A study of Mus musculus with 6 samples.

Results

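Expression of 10 receptor genes of the immunoglobulin superfamily was followed in regulatory T (Treg) cells, namely Cd28, Icos, Cd226, Ctla4, Pdcd1, Lag3, Tigit, Havcr2, Btla and Cd96. They were chosen by symbol as costimulatory and coinhibitory receptors. The rule uses no measured value, but the choice was made with earlier results of these data known. All 10 were found among the 22939 genes of the deposited tables. RNA was sequenced from 3 libraries of control Treg (ctrl-Treg) cells and 3 libraries of Treg cells differentiated in the presence of sorafenib (Sora-Treg). Sorafenib (Sora) is an oral inhibitor of several kinases that is used against liver cancer. According to the methods, mice of C57BL/6J background with a GFP reporter knocked into Foxp3 gave naive CD4+ T cells, which were differentiated in culture with anti-CD3 and anti-CD28 antibodies, TGF-β1, anti-IFN-γ and anti-IL4, and GFP+ cells were sorted. Both groups therefore carried the reporter allele, and both were stimulated through the product of Cd28, a member of the set. The labels give no Sora concentration, culture time, age, number of animals or pooling for these libraries, and cells of this kind are a culture model of induced Treg cells, not Treg cells taken from a tissue.

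T cells read their antigen receptor together with signals from such surface receptors. CD28 and ICOS add to the signal and help T cells grow and survive. CTLA-4, a receptor that Treg cells carry in quantity, binds the same ligands as CD28 with higher affinity and can strip them from antigen-presenting cells, while PD-1, LAG-3, TIGIT, TIM-3 and BTLA dampen the signal. CD226, TIGIT and CD96 share nectin-like ligands, with CD226 activating and TIGIT inhibitory, and Treg cells are known for high CTLA-4, ICOS and TIGIT.

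Library totals ranged from 30727686 to 37717324 counts, and the biological coefficient of variation was 4.29%. Whether the numbered libraries came from separate cultures or animals is not given, so the p-values measure the spread between these libraries, which may be technical. In these bulk samples fewer cells of a type and less RNA per cell cannot be told apart. The CD4+ T cell markers Cd3e and Cd4 summed to between 904 and 917 CPM (counts relative to library size, scaled between libraries by the TMM method) in ctrl-Treg and between 1027 and 1076 CPM in Sora-Treg libraries, and the Treg markers Foxp3, Il2ra and Ikzf2 to between 2323 and 2367 and between 4156 and 4270 CPM. Most of the latter sum and of its difference was Il2ra, with means of 1934 and 3795 CPM, while Foxp3 had 259 and 272 CPM and Ikzf2, which was not called, 147 and 149 CPM. In the CD4+ T cell sum most of the difference was Cd3e, with means of 230 and 348 CPM, while Cd4 had 679 and 709 CPM. The 3 natural killer cell markers had at most 7 counts in any library. The CD8 genes Cd8a and Cd8b1 summed to between 13.2 and 15.1 CPM in controls and between 12.6 and 13.8 CPM under Sora. Cd8b1 made up most of this sum and was not called, with means of 11.3 and 11.6 CPM, while Cd8a was called lower, at 2.65 and 1.62 CPM. For 4 dendritic cell markers the sums were between 15.3 and 17.2 CPM and between 4.28 and 4.86 CPM. Most of that sum and of its difference was Zbtb46, with means of 15.4 and 4.13 CPM. Flt3 was also lower, at 0.865 and 0.288 CPM, and Itgax and Xcr1 were too low to be tested. The 7 myeloid markers summed to 93.5 and 93.0 CPM in control replicates 1 and 2 and to 24.9 CPM in control replicate 3. In Sora-Treg libraries they summed to between 20.8 and 42.9 CPM. Of the 7, 5 were called lower, beside 29.9% of all tested genes, but the groups overlapped for every one of them. Cd68 and Fcgr3 were not called, with log2 fold changes of 0.20 and -1.09.

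The set changed in both directions. In Sora-Treg cells 6 receptor genes were higher (Icos, Ctla4, Cd28, Lag3, Tigit and Cd96), 2 were lower (Btla and Pdcd1) and 2 did not pass the test (Havcr2 and Cd226). The largest changes were in the CD28 family itself, with Icos and Ctla4 3.06-fold and 2.89-fold higher, Cd28 2.05-fold higher and Btla 2.16-fold lower. The call was an adjusted p under 0.05 in edgeR's quasi-likelihood test over 13463 genes, under which 59.6% of all tested genes were called, 29.7% higher and 29.9% lower. The 8 called members are 80% of the set. The median absolute log2 fold change was 0.75 over the members and 0.28 over all tested genes. Beyond 2-fold, 3 members were higher and 1 was lower, where 6.3% of tested genes were higher and 4.97% lower. For 8 members the groups were fully apart, which also holds for 63.7% of tested genes. With control replicate 3 as the only control the counts were 5 higher and 2 lower.

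**Figure D1:**
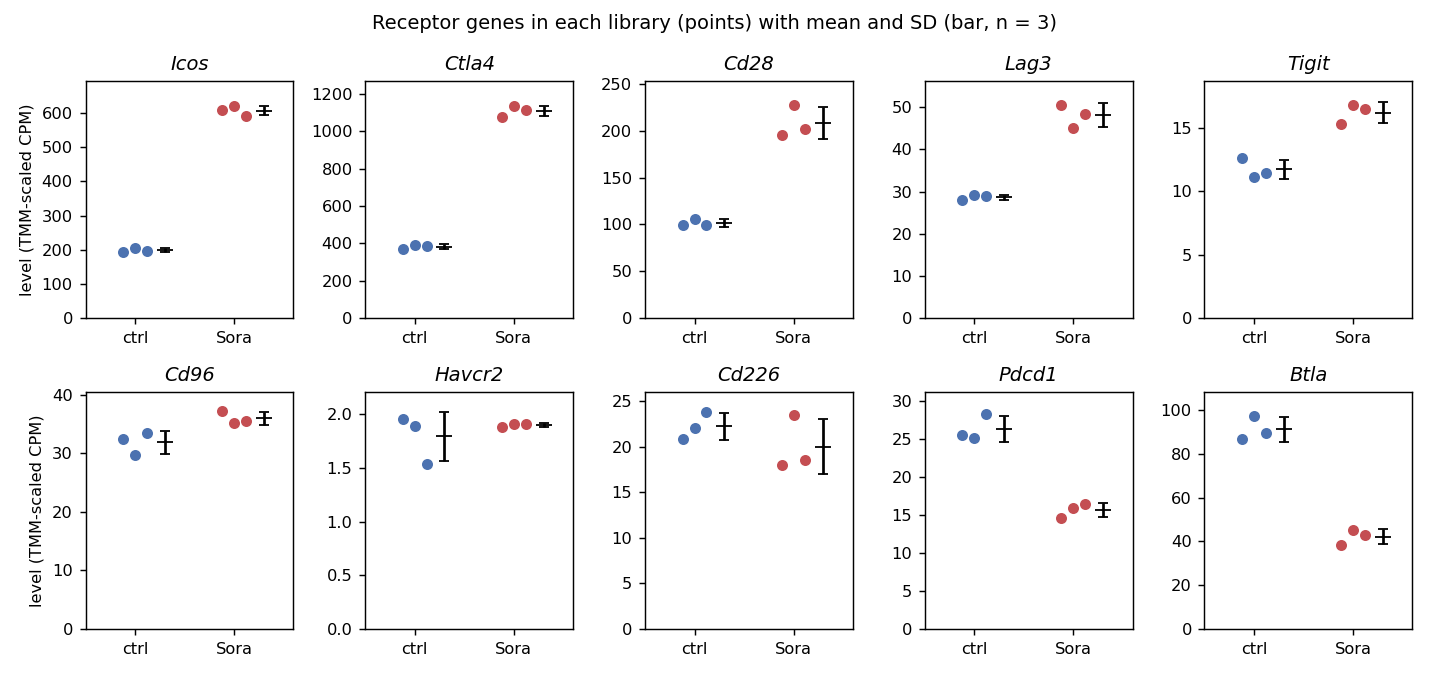
Level of each receptor gene in TMM-scaled CPM, with 1 point per library and the mean and SD of 3 libraries beside them, for ctrl-Treg (blue) and Sora-Treg (red) cells, each axis starting at 0. Points of the groups do not overlap except for Havcr2 and Cd226.

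Among the costimulatory receptors, Icos, which sustains effector and Treg cells after activation, had 193, 205 and 198 CPM in controls and 609, 619 and 592 CPM under Sora. All Sora-Treg libraries stood far above all ctrl-Treg libraries. The log2 fold change was 1.61 (SE 0.03, with adjusted p = 7.62e-22 by edgeR), a 3.06-fold rise, and it was the largest of the set in either direction. Cd28, the main costimulatory receptor of naive T cells, had 99.2, 106 and 99.6 CPM in controls and 196, 228 and 202 CPM under Sora. The groups were separate, with Sora replicate 2 the highest of the 6. Cd28 rose 2.05-fold, a log2 fold change of 1.04 (SE 0.05, with adjusted p = 4.42e-15 by edgeR). It lay at the 2-fold limit and fell under it in 6 of 17 alternative analyses, although its call held in all of them.

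Cd226, an activating receptor for the adhesion molecules CD155 and CD112, had 20.9, 22.1 and 23.8 CPM in controls and 18, 23.5 and 18.6 CPM under Sora. The groups overlapped because Sora replicate 2 lay inside the control range. The log2 fold change was -0.15, with a 95% interval from -0.33 to 0.032 (edgeR adjusted p = 0.149). Without Sora replicate 2 the log2 fold change was -0.28 and passed the test. With libraries scaled by their totals it was -0.27 and also passed, but there the median over all tested genes shifted to -0.12.

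Of 7 coinhibitory receptors, 4 were higher, 2 were lower and 1 did not pass. Ctla4, whose product competes with CD28, had 370, 394 and 386 CPM in controls and 1078, 1134 and 1111 CPM under Sora. The lowest Sora-Treg library was far above the highest control. The rise was 2.89-fold, a log2 fold change of 1.53 (SE 0.03, with adjusted p = 7.94e-22 by edgeR). Lag3, whose product binds MHC class II, had 27.9, 29.1 and 28.9 CPM in controls and 50.7, 45.0 and 48.5 CPM under Sora. These ranges were well apart, and Lag3 rose 1.68-fold (log2 fold change 0.75 with SE 0.05, adjusted p = 5.30e-11 by edgeR).

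Tigit, the inhibitory counterpart of Cd226, had 12.6, 11.1 and 11.4 CPM in controls and 15.3, 16.8 and 16.4 CPM under Sora. Its rise was smaller, 1.38-fold, and still left the groups apart (log2 fold change 0.46 with SE 0.08, adjusted p = 5.66e-05 by edgeR). Cd96, a further receptor for CD155, had 32.4, 29.7 and 33.5 CPM in controls and 37.1, 35.1 and 35.6 CPM under Sora. The groups did not overlap but were close, and the log2 fold change was 0.17 (SE 0.06, with adjusted p = 0.0118 by edgeR). The call was fragile: the log2 fold change was 0.13 and did not pass without control replicate 2, and was 0.059 and did not pass with libraries scaled by their totals, a scaling under which the median over all tested genes shifted to -0.12. It was 0.10 and did not pass with control replicate 3 as the only control.

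Btla, whose product is an inhibitory receptor for the TNF receptor family member HVEM, had 86.7, 97.5 and 89.5 CPM in controls and 38.6, 45.0 and 42.9 CPM under Sora. Every Sora-Treg library lay below every control, and the log2 fold change was -1.11 (SE 0.05, with adjusted p = 2.61e-14 by edgeR), a 2.16-fold fall. B cells also express Btla. Of 5 B cell markers 4 were tested and all 4 were called lower, beside 29.9% of all tested genes. The 5 markers summed to between 9.71 and 10.7 CPM in controls and between 6.09 and 7.68 CPM under Sora, most of it Cd79b. The part of these markers in the fall of Btla was not tested. Pdcd1, which encodes PD-1, had 25.6, 25.1 and 28.2 CPM in controls and 14.6, 15.9 and 16.4 CPM under Sora. It fell in all Sora-Treg libraries, 1.68-fold, a log2 fold change of -0.75 (SE 0.07, with adjusted p = 9.99e-09 by edgeR).

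Havcr2, which encodes TIM-3, was by far the least abundant, with 77, 69 and 49 counts in ctrl-Treg and 57, 61 and 68 counts in Sora-Treg libraries. These correspond to 1.96, 1.90 and 1.53 CPM and to 1.88, 1.91 and 1.91 CPM, so the groups overlapped. Control replicate 3 was the lowest for Havcr2, and 6 of the 7 myeloid markers were also at least 2 times lower there than in both other controls. Myeloid cells can express Havcr2, and the part of these markers in its value was not tested. The log2 fold change was 0.078, with a 95% interval from -0.41 to 0.57 (edgeR adjusted p = 0.797), and its sign turned with libraries scaled by their totals, with limma on FPKM without a filter and without control replicate 3. At these low counts a change in either direction within that interval remains possible.

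**Figure D2:**
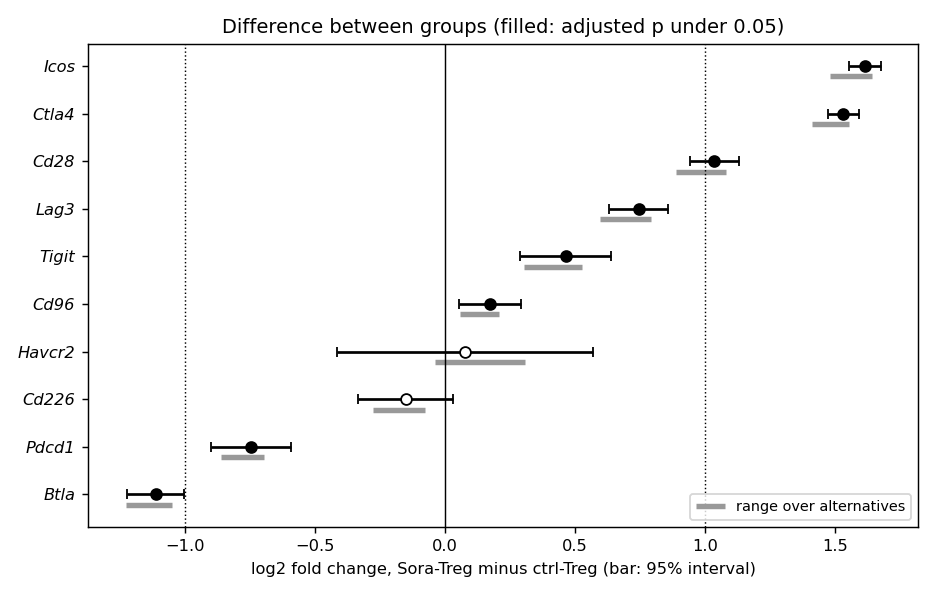
Log2 fold change of each receptor gene between Sora-Treg and ctrl-Treg cells with its 95% interval (points and bars, filled where the adjusted p was under 0.05), the range over the alternative analyses (grey) and the 2-fold limits (dotted). Icos, Ctla4, Cd28, Lag3 and Tigit lie above 0 and Pdcd1 and Btla below 0 throughout, Cd96 is above 0 but not always called, and the range of Havcr2 crosses 0 since its sign turns when libraries are scaled by their totals, with limma without a filter and without control replicate 3.

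Levels of different genes were compared per length, in FPKM (fragments relative to gene length and library total). In ctrl-Treg cells the order was Ctla4 with 187 ± 5.47 FPKM, Icos with 47.7 ± 1.35, Cd28 with 23.2 ± 0.860 and Btla with 19.5 ± 1.14 FPKM (SD, n = 3). Cd96, Lag3 and Pdcd1 followed at 15.2 ± 0.938, 14.9 ± 0.285 and 14.2 ± 0.908 FPKM, and these 3 could not be ordered, since their ranges overlapped. Tigit, Cd226 and Havcr2 closed the order with 5.70 ± 0.399, 4.76 ± 0.305 and 0.685 ± 0.0878 FPKM.

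In Sora-Treg cells the top 3 genes kept their places, with Ctla4 at 498 ± 11.9, Icos at 135 ± 3.03 and Cd28 at 44.0 ± 3.50 FPKM (SD, n = 3). Lag3 came next at 23.0 ± 1.4 FPKM and was separate from Cd96 at 15.8 ± 0.492 FPKM. Btla had gone from rank 4 to rank 6. Btla at 8.32 ± 0.634, Pdcd1 at 7.78 ± 0.460 and Tigit at 7.27 ± 0.352 FPKM overlapped between neighbours. Cd226 at 3.96 ± 0.595 and Havcr2 at 0.670 ± 0.00569 FPKM were again the lowest.

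**Figure D3:**
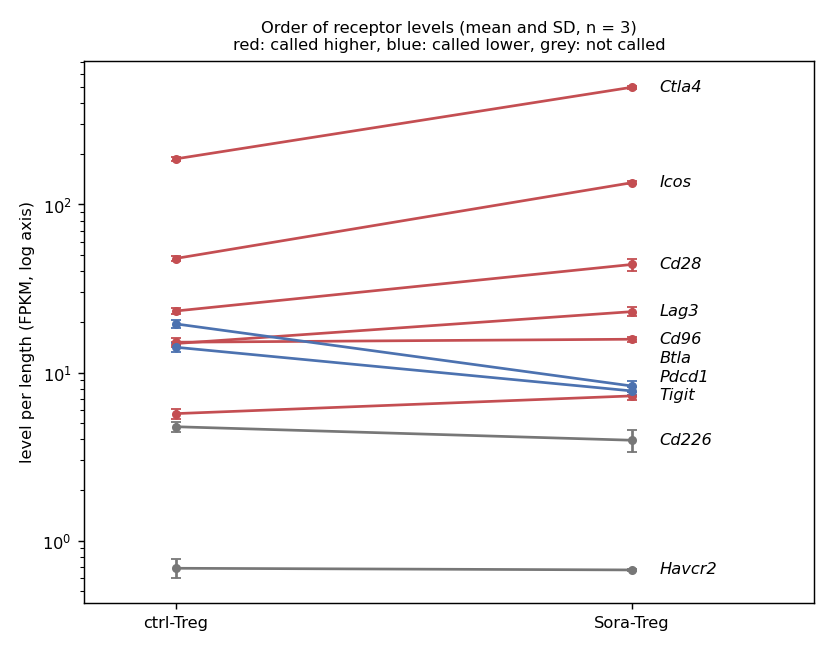
Mean level per length of each receptor gene in FPKM on a log axis, with the SD of 3 libraries, in ctrl-Treg and Sora-Treg cells, in red where called higher, blue where called lower and grey where not called. Ctla4, Icos and Cd28 hold the top 3 places in both groups, and the lines of Lag3 and Tigit cross or approach those of Btla and Pdcd1.

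Ctla4 alone made up 55.8%, 56.4% and 56.2% of the summed FPKM of the 10 genes in controls and 66.6%, 66.9% and 67.4% under Sora. Ctla4, Icos and Cd28 together went from between 77.2% and 78.1% to between 90.9% and 91.3%. The share of Cd28 and of each of the 7 other members was lower under Sora in all libraries, also where the gene itself was called higher, as for Lag3, from between 4.45% and 4.50% to between 2.83% and 3.34% of the sum. The share of Pdcd1 went from between 3.98% and 4.54% to between 0.996% and 1.10%, and that of Btla from between 5.71% and 6.13% to between 1.05% and 1.17%. The 10 genes held between 0.0907% and 0.0956% of all counts in ctrl-Treg and between 0.198% and 0.208% in Sora-Treg libraries.

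Pairs of receptors that compete for ligands were compared as ratios within a library, which need no scaling between libraries. The Ctla4 to Cd28 ratio of FPKM was 7.94, 7.90 and 8.27 in controls and 11.7, 10.6 and 11.7 under Sora. Both genes rose, and the ratio was higher in every Sora-Treg library than in any control. The difference in log2 ratio was 0.50 (two-sided exact permutation test p = 0.1, the smallest that 3 against 3 allows). The Tigit to Cd226 ratio of FPKM was 1.37, 1.15 and 1.09 in ctrl-Treg and 1.93, 1.63 and 2.01 in Sora-Treg libraries. The groups did not overlap, and the difference in log2 ratio was 0.63 (exact permutation p = 0.1, again the smallest possible).

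**Figure D4:**
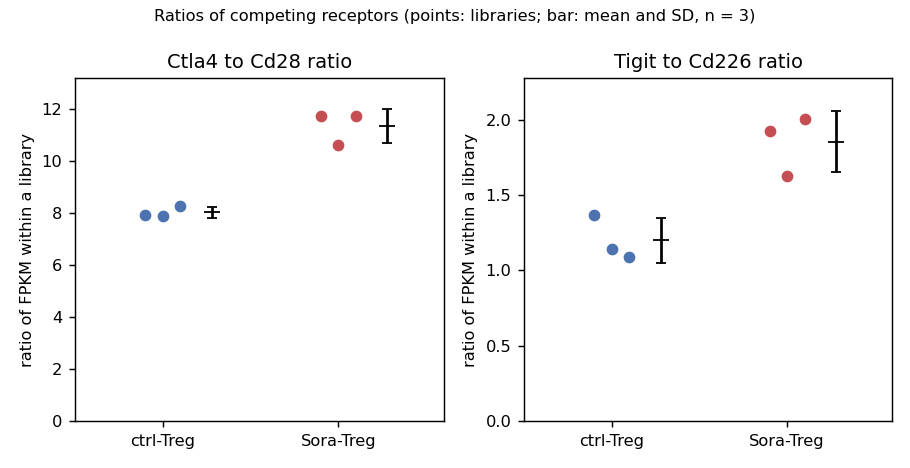
Ratio of FPKM of Ctla4 to Cd28 (left) and of Tigit to Cd226 (right) within each library (points), with the mean and SD of 3 libraries, both axes starting at 0. The Sora-Treg libraries lie above the ctrl-Treg libraries in both panels, from 10.6 against at most 8.27 and from 1.63 against at most 1.37.

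Cd28, Ctla4 and Icos, the 3 members that rose beyond 2-fold, lie side by side on the plus strand of chromosome 1, in RefSeq on GRCm38.p6 at 60746388 to 60773359, 60909025 to 60915832 and 60960773 to 61000322, a stretch of 254 kb. Pdcd1, which fell, is on the same chromosome at 94038305 to 94052553 on the minus strand. Tigit (43626137 to 43665125, minus strand), Btla (45223705 to 45252895, plus strand) and Cd96 (46035652 to 46120248, minus strand) lie within 2494 kb of each other on chromosome 16. Tigit and Cd96 were called higher, Cd96 in 11 of the 17 alternatives, and Btla was lower. Lag3 is on chromosome 6 (124904359 to 124912434) and Havcr2 on chromosome 11 (46454931 to 46481255). The values are sums over whole genes, so exons, introns and transcript forms cannot be told apart, among them the membrane and soluble forms of CTLA-4. In GENCODE M21, Ctla4 overlaps a processed pseudogene and Icos a transcript of unsettled status, neither of which was analysed here.

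The promoters of 6 members had an entry in the RefSeq table, and those of Ctla4 and Pdcd1 are shown because these members of 1 family on 1 chromosome changed in opposite directions. Each run is the 250 bases before the annotated start on the gene's own strand (GRCm38.p6), and capitals mark GGAAA or its reverse TTTCC, the core recognized by NFAT, a factor that carries the antigen receptor signal.
Ctla4, chr1:60908775-60909024, plus strand: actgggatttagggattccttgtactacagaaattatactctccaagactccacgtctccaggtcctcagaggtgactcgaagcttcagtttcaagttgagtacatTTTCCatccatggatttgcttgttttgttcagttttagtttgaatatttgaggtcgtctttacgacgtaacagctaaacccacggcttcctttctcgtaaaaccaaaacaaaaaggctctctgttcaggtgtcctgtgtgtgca
Pdcd1, chr1:94052554-94052803, minus strand: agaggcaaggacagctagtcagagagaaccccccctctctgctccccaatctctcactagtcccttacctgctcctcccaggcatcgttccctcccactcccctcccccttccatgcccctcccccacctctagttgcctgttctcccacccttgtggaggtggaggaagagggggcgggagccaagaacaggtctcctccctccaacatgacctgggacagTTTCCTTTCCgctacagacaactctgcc
The core was present in 1 place in Ctla4 and 2 times in Pdcd1, with no match in Btla. The Btla and Tigit windows are not shown because they lie inside the spans of these genes. Among 32817 promoter windows of the same length, 55.6% held it, so its presence is common, and its first 4 bases are also the core of ETS factors. The AP-1 motif TGANTCA (6.75% of windows), the forkhead motif GTAAACA (3.16%) and the STAT motif TTCNNNGAA (7.01%), each searched on both strands, had no match in these 3 windows. Of the other promoters, Tigit held the NFAT core 2 times and Cd96 held it 4 times with 1 STAT match, and Havcr2 held 1 AP-1 match. These are matches of letters and not binding sites.

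Ligands of the receptors were next examined, because T cells can carry some of them. Of 15 listed genes 14 were tested, with 5 called higher, 7 lower and 2 not called. The median log2 fold change was -0.13 against -0.0035 over all tested genes, and the median absolute value 0.49 against 0.28. The called genes are 85.7% of those tested in the list, beside 59.6% of all tested genes (29.7% higher and 29.9% lower). The gene with the strongest change was Lgals3, which encodes galectin-3, a ligand of LAG-3. It had 17.4, 15.1 and 14.8 CPM in controls and 84.3, 86.7 and 92.2 CPM under Sora (log2 fold change 2.47 with SE 0.06, adjusted p = 6.16e-20 by edgeR). Pvr, which encodes CD155, the ligand shared by TIGIT, CD226 and CD96, rose from 92.2 ± 2.01 to 153 ± 2.41 CPM (SD, n = 3), with 0.73 as its log2 fold change. Lgals9, encoding the TIM-3 ligand galectin-9, fell from 79.5 ± 2.0 to 55.0 ± 1.83 CPM, and Pdcd1lg2, encoding the PD-1 ligand PD-L2, fell from 39.9 ± 1.59 to 22.2 ± 2.35 CPM (log2 fold changes -0.53 and -0.85).

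Further ligands were chosen after their values had been seen, for their place in the pathway. Cd80 and Cd86, the shared ligands of CD28 and CTLA-4, went opposite ways, Cd80 from 26.3 ± 0.373 to 22.6 ± 0.314 CPM and Cd86 from 19.5 ± 2.19 to 26.9 ± 0.942 CPM (adjusted p = 0.00395 and 1.85e-05 by edgeR, SD over 3 libraries). Myeloid cells also make both, and the part of their markers in these values was not tested. Icosl, the ligand of ICOS, rose from 6.86 ± 0.0209 to 9.87 ± 0.458 CPM. Cd274, which encodes PD-L1, was 148 ± 1.44 and 138 ± 2.65 CPM, and its small fall (log2 fold change -0.10, edgeR adjusted p = 0.0102) was lost without control replicate 1 and with control replicate 3 as the only control.

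Genes that carry or route the receptors' signals mostly rose by small amounts. All 15 listed genes were tested, with 10 called higher, 4 lower and 1 not called. The called genes are 93.3% of the list, beside 59.6% of all tested genes. The median log2 fold change was 0.21 against -0.0035 over all tested genes. The median absolute value was 0.27, close to the 0.28 over all tested genes. Grap2 (an adaptor that docks on CD28), Pik3r1 (the regulatory subunit of the PI3 kinase that binds CD28 and ICOS) and Prkcq (protein kinase C theta, which acts downstream of CD28) had log2 fold changes of 0.55, 0.53 and 0.51. Trat1, which encodes TRIM, an adaptor known to promote transport of CTLA-4 to the cell surface, went the other way. It had 109, 121 and 116 CPM in controls and 21.2, 24.2 and 22.9 CPM under Sora. The groups were wide apart, with a log2 fold change of -2.34 (SE 0.05, with adjusted p = 2.40e-20 by edgeR), opposite in direction to Ctla4 itself.

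Of 19 other co-signaling receptors 17 were tested, with 10 called higher, 4 lower and 3 not called. The called genes are 82.4% of those tested in the list, beside 59.6% of all tested genes. The median log2 fold change was 0.20 against -0.0035 over all tested genes, and the median absolute value 0.33 against 0.28. Slamf7 and Slamf6, 2 receptors of the SLAM family, moved in opposite directions, Slamf7 from 8.52 ± 1.5 to 88.0 ± 0.341 CPM and Slamf6 from 68.1 ± 3.2 to 17.8 ± 1.11 CPM (SD, n = 3, log2 fold changes 3.36 and -1.94). Vsir, which encodes the checkpoint receptor VISTA, a relative of the PD-1 ligands, rose from 233 ± 4.57 to 460 ± 9.15 CPM. Cd2, an adhesion and costimulatory receptor, rose from 377 ± 9.55 to 797 ± 13.5 CPM. The number called was between 10 and 14 when each library was left out in turn, and 10 with limma on log2(FPKM + 1).

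Next were 17 transcription factors known to act on these receptor genes or in the cells that carry them. Of these, 7 were called higher, 8 lower and 2 not called. The called genes are 88.2% of the list, beside 59.6% of all tested genes. The median log2 fold change was -0.37 against -0.0035 over all tested genes, and the median absolute value 0.67 against 0.28. Nr4a3, Nr4a1 and Tcf7 fell, with log2 fold changes of -1.68, -1.31 and -1.24. The first 2 are early targets of antigen receptor signals, and Tcf7 encodes TCF1, a factor of naive and memory T cells. Maf, which encodes c-MAF, a factor tied to coinhibitory receptors and IL-10, rose from 18.6 ± 0.567 to 68.2 ± 6.12 CPM (SD, n = 3, log2 fold change 1.87). Others of the list were named after their values had been seen. Prdm1 (Blimp-1, a factor of effector Treg cells) rose by 1.39 on the log2 scale. The NFAT family members of the list went opposite ways: Nfatc1, which acts on Pdcd1, fell by 0.72 and Nfatc2 rose by 0.37. Foxp3 itself had 259 ± 8.99 and 272 ± 4.75 CPM (SD, n = 3), a small difference (log2 fold change 0.074, adjusted p = 0.0405 by edgeR). Its direction and call held in 6 of 17 alternatives. The direction turned with limma on FPKM and when library totals set the scale, and FPKM carries that same scaling.

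**Figure D5:**
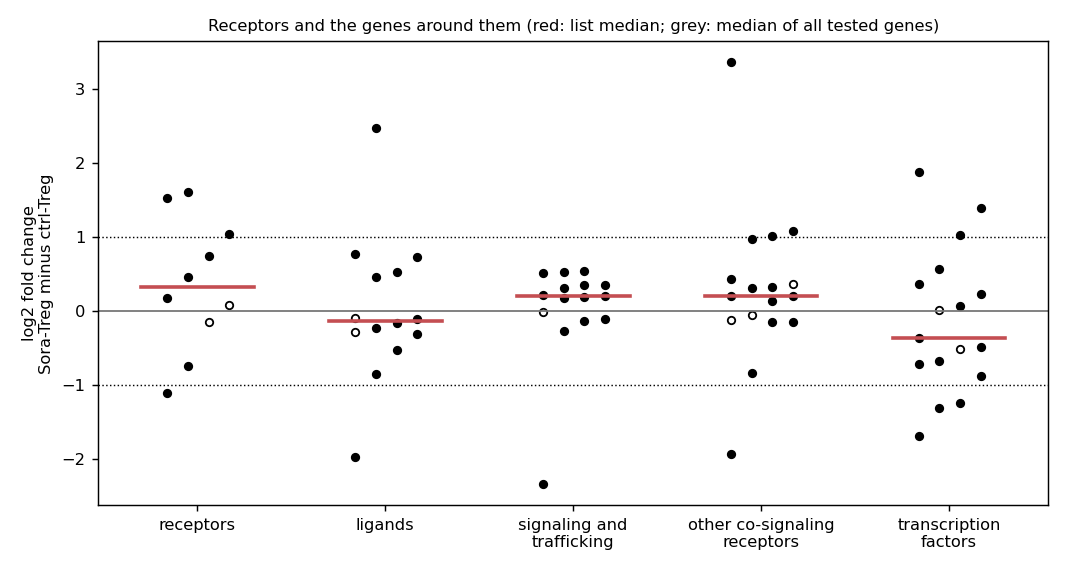
Log2 fold change between Sora-Treg and ctrl-Treg cells for the 10 receptor genes and 4 lists around them (1 point per tested gene, filled where the adjusted p was under 0.05), with the median of each list (red), the median of all tested genes (grey) and the 2-fold limits (dotted). Points lie on both sides of 0 in every list, and Slamf7 at 3.36 and Trat1 at -2.34 are the extremes of the plot.

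Icos, the member with the largest change, was compared with 9158 other genes of at least 3 mean log2 CPM by Pearson's r of log2 CPM over the 6 libraries. Matk, Zfp395 and Fgf11 were most alike, each with r = 0.9997, and all rose. An r over 0.99 was shared by 730 genes (7.97%), and the 6 libraries fall into 2 groups, so the order among these genes is a description only.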

How the data were processed

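RNA-seq of 3 ctrl-Treg and 3 Sora-Treg libraries was analysed, grouped by the GEO labels. The authors deposited a table of raw read counts per gene symbol and a table of FPKM values; here FPKM equalled the count over the library total and over 1 fixed length for each gene. The study's methods name GRCm38 and Bowtie2, whereas the submitters' processing notes list GRCm39, fastp, HISAT2, HTSeq and DESeq2. The strand setting and annotation release were not given in the sources used here. The tables hold no coordinates, so positions are from RefSeq on GRCm38.p6.

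Counts were tested with edgeR 4.0.16 in R 4.3.3 (filterByExpr, TMM scaling, quasi-likelihood F-test, Benjamini-Hochberg adjustment over 13463 genes, called at an adjusted p under 0.05). SEs are the log2 fold change divided by the square root of F. Alternatives used other scalings and filters, DESeq2 1.42.0, limma 3.58.1 on log2(FPKM + 1) and log2(FPKM + 0.1), a replicate block and leaving out each library. Control replicate 3 as the only control was added after seeing the data. On simulated counts edgeR recovered 95% of 2-fold changes, with 3.96% false calls among its calls. In that simulation only 197 of 13463 tested genes were changed, about as many up as down, with the same dispersion for every gene. In the real data 59.6% of tested genes were called, so these rates need not hold for them. All 10 members are named. From each other list the 4 genes with the smallest adjusted p were named. The members and lists were chosen with earlier results of these data known. At these depths 3 counts are 0.0795 to 0.0976 CPM. Libraries of a group differed by more than sampling noise (chi-square per degree of freedom 3.36 to 5.91), so none simply repeated another. This measure cannot tell separate cultures from separate preparations of the same RNA or culture. Same-numbered libraries did not deviate together (correlations -0.044, 0.059 and 0.030), so numbers were not taken as pairs.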

Additional observations from a re-analysis of the deposited data

How the results depend on the processing

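Over 17 alternatives between 5 and 6 receptor genes were called higher and 2 to 3 lower, with 2 to 3 beyond 2-fold higher and 1 lower. Icos, Ctla4, Cd28, Lag3, Tigit, Pdcd1 and Btla kept their direction and call in all of them. Scaling by library totals gave log2 fold changes of 0.059 for Cd96 (no longer called), -0.27 for Cd226 (called lower), -0.037 for Havcr2 and -0.041 for Foxp3 (both turned). Under this scaling the median over all tested genes was -0.12. FPKM is scaled by library totals as well, so the 3 limma alternatives share that scaling and are not separate from it. With limma on log2(FPKM + 1), on log2(FPKM + 0.1) and on log2(FPKM + 1) without a filter, Cd96 had 0.057, 0.060 and 0.057 and was not called, and Foxp3 turned to -0.039, -0.040 and -0.039. Cd226 was called lower by the first 2 of these, at -0.22 and -0.27, and Havcr2 turned to -0.012 by the last. Leaving out each library in turn gave 0.13 to 0.21 for Cd96, -0.28 to -0.077 for Cd226, -0.020 to 0.15 for Havcr2 and -0.47 to 0.12 for Nrp2, which turned without control replicate 1 and, at 0.066, without control replicate 2. With control replicate 3 as the only control, assumed to vary like the other libraries, Cd96 was 0.10 and not called, Nrp2 turned to 1.09, and 9 other co-signaling receptors were called instead of 14. The cause was not tested. The replicate block left 6 members higher and 2 lower, with Cd28 at 1.03, and changed no member's call. With 3 libraries a group, permutation tests of ratios cannot go below 0.1.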

Other observations

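The tested genes on either side of the stretch with Cd28, Ctla4 and Icos were read from the same fit. Raph1, a cytoskeletal regulator that ends 179 kb before Cd28, rose from 33.9 CPM in controls to 54.3 CPM under Sora (log2 fold change 0.68 with SE 0.05, adjusted p = 3.25e-11 by edgeR), less than any of the 3 receptor genes. Nrp2, a semaphorin receptor that starts 1703 kb after Icos, was at 1.51 and 1.4 CPM (log2 fold change -0.12 with SE 0.33, adjusted p = 0.770 by edgeR), and its direction turned when control replicate 1 or 2 was left out. Both were named after their values had been seen.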
